A study of Mus musculus with 4 samples.

Results

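Ccr7, Tcf7, Lef1, Il7r, Klf2, S1pr1, Slamf6, Satb1 and Bcl2 are 9 genes that mark naive and memory T cells, and they were followed across cell classes and libraries of mouse tumours. They were chosen by symbol from the 32285 genes in the deposited gene table, and all 9 were found there. Single-cell RNA was measured in 4 tumour libraries from C57Bl6 mice 6 to 8 weeks old, 2 of them from the Nanocapsule treatment and 2 from the Control. The source is labelled tumour and the cell type cancer cells. The labels name neither the tumour line, nor the enzymes carried by the nanocapsules, nor the dose, nor which animals the libraries came from. For treatments within a class of cells, every p-value below thus measures the spread between these 4 libraries, which may be technical. Where classes or parts of a library are compared, it measures the spread of their differences over these libraries, which may be technical too. The title of the study names enzyme nanocapsules and T cell immunity, and the comparison of treated with untreated tumours bears on whether T cells with this pattern of genes differ between them.

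T cells that have not met antigen, and the memory cells that remain after a response, circulate between blood and lymphoid organs and live long on survival signals. Tcf7 (encoding TCF1) and Lef1 are related DNA-binding factors of the Wnt pathway that maintain naive, memory and stem-like T cells, and Satb1 is a chromatin organiser that is high in developing and naive T cells. Klf2 is a transcription factor that keeps T cells quiescent and switches on S1pr1, the sphingosine-1-phosphate receptor with which lymphocytes leave lymphoid organs. Ccr7 is the chemokine receptor that guides cells into lymph nodes, Il7r is the receptor chain for the survival cytokine interleukin-7, Slamf6 is a surface receptor of lymphocytes often used with TCF1 to mark stem-like CD8 T cells, and Bcl2 is the protein that blocks mitochondrial cell death.

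The promoters of 3 members are shown because these genes were higher in T cells with Tcf7 RNA than in those without (values below) and their windows lie outside the annotated gene. Each sequence is the 250 bases before 1 RefSeq start on GRCm38.p6, written 5′ to 3′ on the gene's strand. The start nearest the annotated gene start was used, of 4 for Lef1, 5 for Satb1 and 1 for Bcl2. Capitals mark the core letters bound by TCF and LEF factors, CTTTG, and by KLF factors, CACCC, on either strand (CAAAG and GGGTG on the other). The windows are chr3:131110073-131110322 on the plus strand for Lef1, chr17:51833291-51833540 on the minus strand for Satb1 and chr1:106714291-106714540 on the minus strand for Bcl2.

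Lef1: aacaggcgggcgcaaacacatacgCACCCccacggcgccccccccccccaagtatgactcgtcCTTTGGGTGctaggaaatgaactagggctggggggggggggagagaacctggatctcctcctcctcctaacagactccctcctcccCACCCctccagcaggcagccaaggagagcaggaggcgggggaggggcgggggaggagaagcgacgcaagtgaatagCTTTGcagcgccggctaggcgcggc

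Satb1: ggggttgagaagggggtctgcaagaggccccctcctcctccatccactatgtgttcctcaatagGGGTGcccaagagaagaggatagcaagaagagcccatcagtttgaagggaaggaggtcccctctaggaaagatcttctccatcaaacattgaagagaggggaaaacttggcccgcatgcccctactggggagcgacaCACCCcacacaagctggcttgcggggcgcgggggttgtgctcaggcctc

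Bcl2: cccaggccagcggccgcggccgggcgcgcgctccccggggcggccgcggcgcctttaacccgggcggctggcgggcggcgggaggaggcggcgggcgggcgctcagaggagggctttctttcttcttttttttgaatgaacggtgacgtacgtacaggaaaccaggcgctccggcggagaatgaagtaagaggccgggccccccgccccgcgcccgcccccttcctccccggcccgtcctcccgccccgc

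The Lef1 window held the TCF/LEF core at -187 and -25 from its start and the KLF core at -226, -183 and -101, where the matches at -187 and -183 share 1 base. The Satb1 window held the KLF core at -186 and -49 and no TCF/LEF core, and the Bcl2 window held neither. These letters are common: 48.6% of 32851 mouse promoter windows of the same length held the TCF/LEF core and 52.0% held the KLF core. A match is therefore a description of the letters only.

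The libraries held 108441772 and 105967866 UMIs (unique molecular identifiers, the count of captured RNA molecules) in Nanocapsule 1 and 2, and 140491491 and 98943390 in Control 1 and 2. A barcode with at least 1000 UMIs was called a T cell when Cd3d, Cd3e, Cd3g and Trac together reached 2 UMIs, which 177 barcodes did. Of these, 14 also carried tumour pigment or other lineage genes above the limits set, and 12 of the rest held more than 20000 UMIs. The remaining 151 T cells came as 35 and 37 from Nanocapsule 1 and 2, and 16 and 63 from Control 1 and 2. Their median depths were 4811 and 6267 UMIs in the Nanocapsule libraries and 2704 and 4288 in the Control libraries. A UMI of Cd8a or Cd8b1 made 82 of them CD8 T cells, and the other 69 are called Cd8-negative. Of 7 T cell markers not used by the gate, 6 were highest in the T cells among the classes (Thy1 was not), and Cd4, Foxp3 and Il2ra, which mark helper and regulatory T cells, were highest in the Cd8-negative cells. Pigment cell genes, which T cells should lack, summed to 70.2 and 87.5 CPM (UMIs per 1000000 UMIs of the summed cells) in Nanocapsule T cells and 172 and 236 CPM in Control T cells, so they moved with treatment, and their part in the results was not tested. No T cell shared its barcode with a T cell of another library.

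Across the classes of cells, Tcf7, Lef1 and Il7r were highest in Cd8-negative T cells, followed by CD8 T cells. Ccr7, Klf2 and Slamf6 were highest in B cells, S1pr1 in endothelial cells and Bcl2 in natural killer (NK) cells, whereas Satb1 lay at nearly the same level in Cd8-negative T cells and NK cells. The levels below are means over the 4 libraries with their SD, treated and untreated together, and the class comparisons pair the classes within a library.

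Tcf7 (chr11:52252371-52283014, minus strand, GRCm38) stood at 412 ± 139 CPM in Cd8-negative T cells, 189 ± 146 CPM in CD8 T cells and 138 ± 57.8 CPM in NK cells (SD, n = 4 each). Dendritic cells had 11.3 CPM and melanocytic tumour cells 7.04 ± 1.83 CPM. The T cell and NK ranges overlapped with their neighbours in this order, and all of them lay above the dendritic cells. B cells held 0 Tcf7 UMIs of 448740 and C1q macrophages 0 of 3755889. With 3 UMIs over the class as the limit of a count of 0, the T cells were at least 43.4-fold higher than B cells and at least 364-fold higher than macrophages.

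Lef1 (chr3:131110471-131224356, plus strand) followed the same order, with 278 ± 111 CPM in Cd8-negative T cells, 215 ± 144 CPM in CD8 T cells, 81.3 ± 40.1 CPM in NK cells and 19.3 ± 7.70 CPM in B cells (SD, n = 4 each). The NK cells lay above the B cells in every library, and the T cell and NK ranges overlapped. Dendritic cells, macrophages, endothelial cells and fibroblasts held no Lef1 UMI.

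Satb1 (chr17:51736187-51833290, minus strand) was spread over the lymphocytes, at 434 ± 157 CPM in Cd8-negative T cells, 421 ± 194 CPM in NK cells, 300 ± 115 CPM in B cells and 228 ± 226 CPM in CD8 T cells (SD, n = 4 each). Neighbours in this order overlapped in range. The other classes had at most 22.7 CPM, the level in dendritic cells.

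Klf2 (chr8:72319033-72321656, plus strand) reached 2485.2 ± 308 CPM in B cells, which lay above all T cells, then 719 ± 285 CPM in Cd8-negative T cells, 659 ± 266 CPM in NK cells and 484 ± 274 CPM in CD8 T cells (SD, n = 4 each). Tumour cells had 23.2 ± 7.16 CPM, below the macrophages in every library.

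Among the receptors, Ccr7 (chr11:99144196-99155077, minus strand) had 759 ± 159 CPM in B cells and 732 ± 413 CPM in dendritic cells, against 148 ± 70.5 CPM in CD8 and 139 ± 99.2 CPM in Cd8-negative T cells (SD, n = 4 each). The dendritic cell and T cell ranges did not overlap. S1pr1 (chr3:115710433-115715072, minus strand) stood at 119 ± 93.5 CPM in endothelial cells, 107 ± 57.5 CPM in B cells, 106 ± 65.7 CPM in Cd8-negative T cells and 74.7 ± 54.4 CPM in CD8 T cells, and these classes did not differ beyond their spread.

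Il7r (chr15:9505788-9530176, minus strand) had 406 ± 236 CPM in Cd8-negative T cells, 210 ± 119 CPM in CD8 T cells, 143 ± 48.4 CPM in C1q macrophages and 124 ± 50.0 CPM in dendritic cells (SD, n = 4 each), with overlap between neighbours. B cells held no Il7r UMI, and the T cells were at least 45.7-fold higher. Slamf6 (chr1:171917515-171953170, plus strand) had 118 ± 5.34 CPM in B cells, 103 ± 86.3 CPM in Cd8-negative T cells and 52.4 ± 36.4 CPM in CD8 T cells, which overlapped.

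Bcl2 (chr1:106538178-106714274, minus strand) was present in every class. NK cells had 351 ± 228 CPM, Cd8-negative T cells 258 ± 102 CPM, CD8 T cells 227 ± 127 CPM, B cells 131 ± 22.9 CPM and tumour cells 60.1 ± 4.69 CPM (SD, n = 4 each). Ranges overlapped down to the B cells, which lay above the tumour cells.

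**Figure D1:**
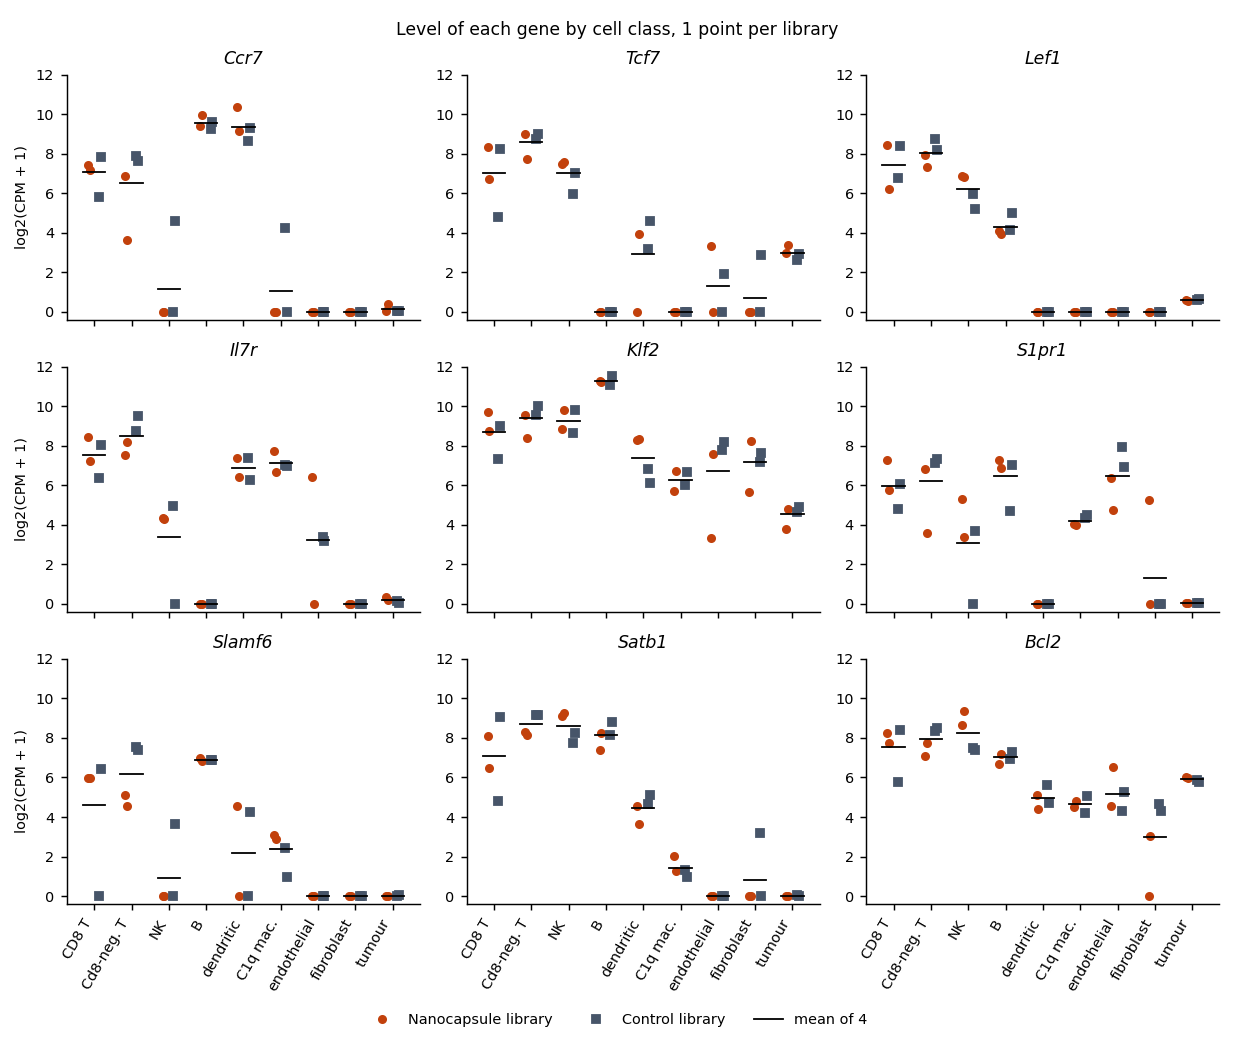
Level of each of the 9 genes in each cell class, as log2(CPM + 1), with 1 point per library (Nanocapsule circles left of Control squares) and a line at the mean of the 4 libraries on this scale. Tcf7, Lef1 and Il7r sit highest in the T cell classes, while Klf2 and Ccr7 sit highest in B cells.

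Set against B cells of the same libraries (edgeR's quasi-likelihood test with Benjamini-Hochberg adjustment, as in all fits below), 6 members passed an adjusted p of 0.05. Among all 2199 genes tested, 18.9% were higher and 21.6% lower in T cells, so being called is common in this comparison. Tcf7 and Il7r were higher, as given above, and Lef1 was higher by 3.57 ± 0.39 on the log2 scale (± SE, adjusted p = 1.01e-13). Klf2 was lower in T cells, with a log2 change of -2.15 ± 0.17 (adjusted p = 7.54e-20), and Ccr7 was lower, with -2.40 ± 0.21 (adjusted p = 1.35e-17). Bcl2 was higher, with 0.87 ± 0.25 (adjusted p = 0.00254), but this call was lost in DESeq2 (log2 change 0.80, adjusted p = 0.107), without Nanocapsule 1 (adjusted p = 0.0514), without Control 2 (0.0770), with the 12 large barcodes kept (0.106) and with all 177 barcodes (0.497). Slamf6, at -0.68 ± 0.31 (adjusted p = 0.0740), and S1pr1, at -0.35 ± 0.31 (adjusted p = 0.396), did not pass. Slamf6 passed with the 12 large barcodes kept (-0.89, adjusted p = 0.0399), a fit that Tcf7 and Lef1 did not enter, with all 177 barcodes (-1.30, adjusted p = 0.00323) and without Control 2 (-1.20, adjusted p = 0.0149).

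Set against C1q macrophages, all 9 members were higher in T cells, where 21.5% of 6113 genes were. The smallest rise was Il7r, at 0.84 ± 0.26 on the log2 scale (adjusted p = 0.0187), which did not pass with the large barcodes kept (0.39, adjusted p = 0.383), without Control 2 (0.42, adjusted p = 0.180) or in DESeq2 (0.74, adjusted p = 0.118), and whose sign turned with all 177 barcodes (-0.06). S1pr1 rose by 2.05, Klf2 by 2.63, Bcl2 by 3.06 and Slamf6 by 3.67. Set against melanocytic tumour cells, all 9 were again higher, where 15.6% of 14514 genes were. Bcl2 rose by 1.98 ± 0.20, Klf2 by 4.63 ± 0.23 and Tcf7 by 5.21 ± 0.25 on the log2 scale.

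The genes most alike to each member in their level over the 9 classes were found by Pearson's r of log2(CPM + 1) among 10678 genes, as a description over 9 class means from shared libraries. Tcf7 was closest to Cxcr3 (r = 0.982), a chemokine receptor of activated T cells, and Icos (r = 0.956), a costimulatory receptor. Lef1 was closest to Sidt1 (r = 0.992), Satb1 to Jakmip1 (r = 0.987), Bcl2 to Fam172a (r = 0.985) and Klf2 to Zdhhc20 (r = 0.982). Ccr7 was closest to Btla (r = 0.968), an inhibitory receptor of lymphocytes, Slamf6 to A330040F15Rik (r = 0.962) and Il7r to Slfn1 (r = 0.945), while S1pr1 had no gene above Gstt2 (r = 0.862). The next nearest were Klhdc1 for Tcf7, Gimap1os and Rnf138 for Lef1, Traf3ip3 and Cnot6l for Satb1, Vps37b and Phf6 for Bcl2, Jund and Adgre5 for Klf2, Map4k1 and Dipk1a for Ccr7, BE692007 and Samd9l for Slamf6, Tent5c and Ccdc88b for Il7r, and Ogt and Xpr1 for S1pr1. Between members, r ran from 0.0936 for Il7r and Klf2 to 0.888 for Lef1 and Bcl2, with 0.819 for Tcf7 and Lef1.

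Within the T cells, CD8 T cells and Cd8-negative T cells of the same libraries were compared directly. Of 1587 genes, 15 passed (0.945%), and none of the 8 members tested did. The cytotoxic genes Nkg7, Gzmk and Gzmb and the memory marker Ly6c2 were higher in CD8 T cells. Tcf7 had a log2 change of -0.96 ± 0.29 in CD8 against Cd8-negative T cells (unadjusted p = 0.0032, adjusted p = 0.193), Satb1 of -0.81 ± 0.35 (adjusted p = 0.586) and Il7r of -0.79 ± 0.35 (adjusted p = 0.629). Il7r passed when Nanocapsule 1 was left out (-1.35, adjusted p = 0.0271).

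In all T cells, none of the 9 members differed between Nanocapsule and Control libraries beyond the spread between libraries. Control 2 and Nanocapsule 1 were the higher library of their group for most members, and Nanocapsule 2 and Control 1 the lower.

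Tcf7 had 401 and 138 CPM in Nanocapsule T cells, against 172 and 393 CPM in Control T cells. Lef1 had 296 and 97.6 CPM in Nanocapsule T cells, against 223 and 318 CPM in Control T cells. Klf2 had 798 and 401 CPM in Nanocapsule T cells, against 378 and 738 CPM in Control T cells. For each of these transcription factors the ranges of the treatments overlapped. Satb1 had 291 and 145 CPM in Nanocapsule T cells, against 223 and 550 CPM in Control T cells, and these groups overlapped as well.

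Ccr7 had 146 and 104 CPM in Nanocapsule T cells, against 120 and 212 CPM in Control T cells. S1pr1 had 135 and 40.4 CPM in Nanocapsule T cells, against 68.7 and 106 CPM in Control T cells. Il7r had 276 and 192 CPM in Nanocapsule T cells, against 206 and 461 CPM in Control T cells. All 3 receptors overlapped between the treatments. Slamf6 had 50.2 and 50.5 CPM in Nanocapsule T cells, against 68.7 and 120 CPM in Control T cells. It was the 1 member whose groups did not overlap, where 18.2% of all 4137 genes tested were lower in both Nanocapsule libraries. Bcl2 had 231 and 212 CPM in Nanocapsule T cells, against 155 and 345 CPM in Control T cells, and overlapped.

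**Figure D2:**
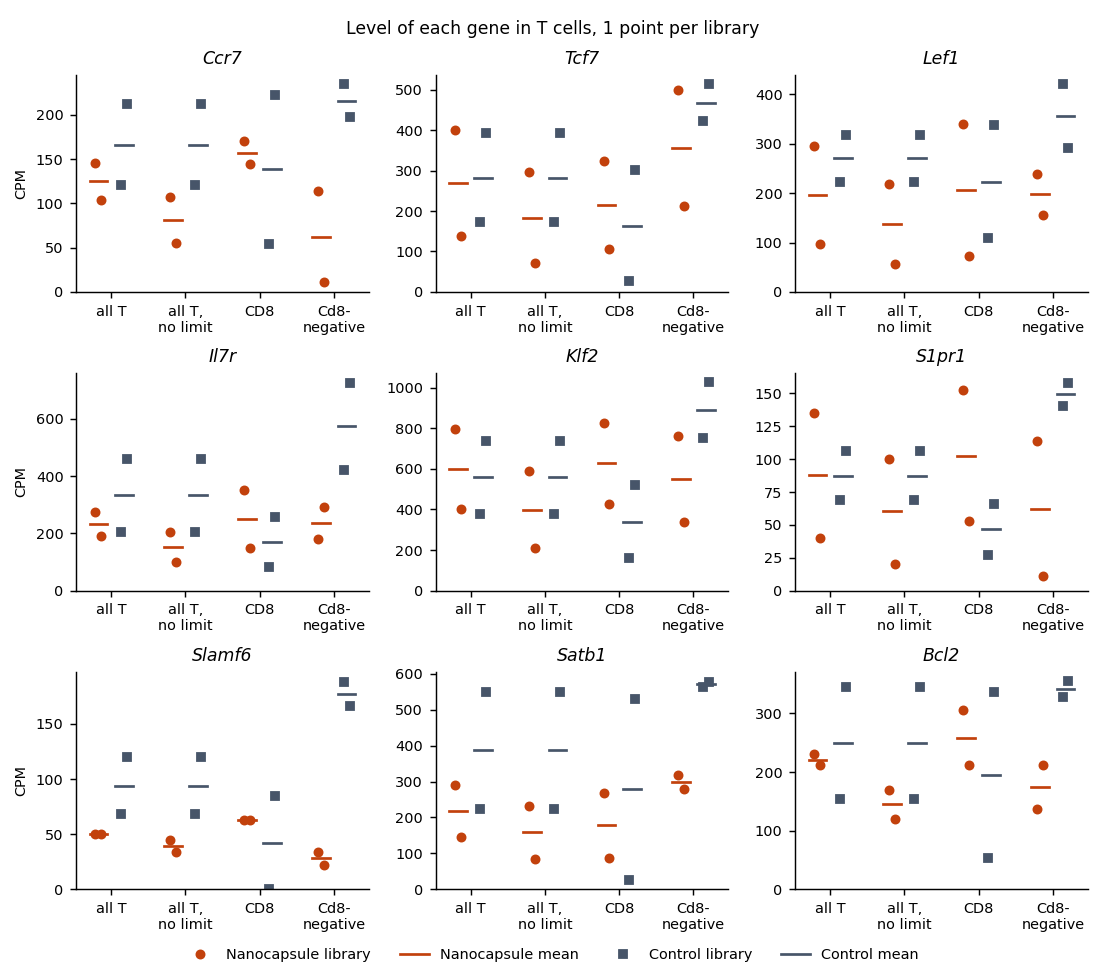
Level of each gene in CPM in all T cells up to 20000 UMIs, in all T cells with no upper limit, in CD8 and in Cd8-negative T cells, with 1 point per library and a line at the mean of each treatment (n = 2). In all T cells the Nanocapsule circles and Control squares overlap for every gene but Slamf6, and in Cd8-negative T cells for Tcf7 and Klf2 alone.

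The fit called 0 of 4137 genes (0%), with 165 at an unadjusted p under 0.05 and 1 call in DESeq2. The adjusted p was 0.999 for every member. The log2 changes, Nanocapsule over Control, were -1.01 ± 0.44 for Slamf6 (unadjusted p = 0.039), -0.90 ± 0.46 for Satb1, -0.58 ± 0.41 for Il7r, -0.49 ± 0.39 for Ccr7, -0.48 ± 0.48 for Lef1, -0.26 ± 0.38 for Bcl2, -0.15 ± 0.53 for Tcf7, -0.13 ± 0.56 for S1pr1 and 0.10 ± 0.42 for Klf2. Of the 9, 8 lay below 0, with a median of -0.48 beside 0.02 over all genes. That count moved with the libraries kept. Without Control 2, the library with most T cells, 2 of 9 lay below 0, with a median of 0.37, and without Nanocapsule 2 it was 5 of 9, with a median of -0.09. Without Nanocapsule 1 all 9 lay below 0, with a median of -0.997, and without Control 1 all 9 did as well, with a median of -0.69, and Satb1 passed (-1.31, adjusted p = 0.00971). The Slamf6 change was -0.25 without Control 2. In simulated counts for this comparison over 3768 genes, changes were given to genes drawn at random from all genes tested. Of those with a log2 change of 1, 16.7% were recovered, and of those with 2, 85.7%, while 7 unchanged genes were called. Most changes of 1 were thus missed there, and recovery of the members themselves was not simulated. In summed RNA, fewer cells with a gene and less RNA per cell cannot be told apart.

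With the 12 large barcodes kept, all of them from Nanocapsule libraries, the levels of the Nanocapsule T cells were lower and those of the Control T cells were as above. Tcf7 then had 296 and 70.3 CPM in Nanocapsule T cells, Lef1 218 and 56.6, Il7r 204 and 99.4, Klf2 589 and 209 and Satb1 233 and 85.7. All 9 changes lay below 0, with a median of -1.08 and adjusted p-values between 0.356 and 0.776. The groups did not overlap for 4 of 9 members, where 19.3% of all genes tested were lower in both Nanocapsule libraries.

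The Cd8-negative T cells, with 17 and 12 cells in Nanocapsule and 9 and 31 in Control libraries, showed the lower levels more evenly. Their median depths were 4811 and 6000 UMIs in Nanocapsule and 2376 and 3970 UMIs in Control libraries. Depth thus moved with treatment in this class, and its part in the members' levels was not tested. The Nanocapsule libraries lay below both Control libraries for 7 of 9 members, where 19.9% of the 1507 genes tested did. No member passed the test, which called 2 genes (0.133%), with 116 at an unadjusted p under 0.05.

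Il7r had 182 and 291 CPM in Nanocapsule Cd8-negative T cells, against 422 and 727 CPM in Control cells, with a log2 change of -1.35 ± 0.41 (unadjusted p = 0.0045, adjusted p = 0.364). It passed only without Control 1 (-1.60, adjusted p = 0.0461), the library with 9 cells. Slamf6 had 34.1 and 22.4 CPM in Nanocapsule Cd8-negative T cells, against 188 and 166 CPM in Control cells, with a log2 change of -2.49 ± 0.78 (unadjusted p = 0.0061, adjusted p = 0.397). These values rest on 3 and 2 Slamf6 UMIs in the Nanocapsule cells and on 4 and 21 in the Control cells.

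Satb1 had 319 and 280 CPM in Nanocapsule Cd8-negative T cells, against 563 and 577 CPM in Control cells, with a log2 change of -0.88 ± 0.37. Bcl2 had 137 and 213 CPM in Nanocapsule Cd8-negative T cells, against 328 and 355 CPM in Control cells, with a log2 change of -0.94 ± 0.41. In both genes the Control libraries lay close together and above the Nanocapsule libraries. Ccr7 had 114 and 11.2 CPM in Nanocapsule Cd8-negative T cells, against 234 and 198 CPM in Control cells (log2 change -1.65 ± 0.65). S1pr1 had 114 and 11.2 CPM in Nanocapsule cells, against 141 and 158 CPM in Control cells (-1.24 ± 0.73). Lef1 had 239 and 157 CPM in Nanocapsule cells, against 422 and 292 CPM in Control cells (-0.66 ± 0.42). These 3 genes did not overlap either, and the 11.2 CPM of Ccr7 and of S1pr1 are 1 UMI each. Klf2, with 762 and 336 CPM in Nanocapsule and 750 and 1027.0 CPM in Control cells (-0.69 ± 0.40), and Tcf7, with 501 and 213 CPM in Nanocapsule and 422 and 513 CPM in Control cells (-0.38 ± 0.44), overlapped.

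The mix of helper and regulatory cells in this class also varied. Foxp3, which defines regulatory T cells, had 148 and 44.8 CPM (13 and 4 UMIs) in Nanocapsule Cd8-negative T cells, against 93.8 and 15.8 CPM (2 and 2 UMIs) in Control cells. Cd4 had 125 and 146 CPM in Nanocapsule cells, against 46.9 and 300 CPM in Control cells. The part of this mix in the members' levels was not tested.

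CD8 T cells, with 18 and 25 cells in Nanocapsule and 7 and 32 in Control libraries, gave no common direction. The test called 0 of 2533 genes (0%), with 61 at an unadjusted p under 0.05 and 2 calls in DESeq2, and 4 of the 7 members tested lay above 0. With the large barcodes kept none of 8 did, with all 177 barcodes none of 8, and with at least 2 CD8 UMIs asked of a CD8 T cell 2 of 7. Without Control 2 all 8 members tested lay above 0, and without Nanocapsule 2 it was 7 of 8, while without Control 1 and without Nanocapsule 1 it was 2 of 9 each. Tcf7 had 323 and 106 CPM in Nanocapsule CD8 T cells, against 27.1 and 301 CPM in Control cells. Klf2 had 826 and 428 CPM in Nanocapsule CD8 T cells, against 163 and 518 CPM in Control cells. Slamf6, the marker used with TCF1 for stem-like CD8 T cells, had 62.8 and 62.6 CPM in Nanocapsule CD8 T cells, against 0 and 84.3 CPM in Control cells. Without Control 1, Satb1 passed (log2 change -1.64, adjusted p = 0.00738), and without Control 2, Klf2 passed (2.12, adjusted p = 0.0233). No member's groups were apart, and Control 1 was the lowest library for each of these genes. Its 7 CD8 T cells held 36896 UMIs in all, so its values rest on few UMIs of each gene. In the fit without Control 2, it was the only Control library. The difference in treatment effect between CD8 and Cd8-negative T cells was tested as an interaction, and 0 of 2296 genes passed (0%, with 72 at an unadjusted p under 0.05 and 0 in DESeq2). The member with the smallest p in it was Klf2, with 1.45 ± 0.46 on the log2 scale (unadjusted p = 0.0049, adjusted p = 1).

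Related genes were read from 3 lists. Of 14 other naive and memory genes tested in T cells, none passed and their median log2 change, Nanocapsule over Control, was -0.23. The most abundant were Ly6c2, with 547 and 1171.7 CPM in Nanocapsule and 533 and 1086.7 CPM in Control T cells, Ets1, with 462 and 374 CPM in Nanocapsule and 533 and 543 CPM in Control T cells, and the interleukin receptor chain Il2rb, with 356 and 643 CPM in Nanocapsule and 464 and 318 CPM in Control T cells. Of 15 effector and exhaustion genes tested, none passed, 12 lay above 0 and the median was 0.85. The cytotoxic granule gene Nkg7 had 1073.8 and 2643.0 CPM in Nanocapsule and 1425.7 and 1107.2 CPM in Control T cells, and Gzmb, a granzyme, had 868 and 842 CPM in Nanocapsule and 1288.3 and 243 CPM in Control T cells. Id2 had 462 and 677 CPM in Nanocapsule and 739 and 591 CPM in Control T cells. Of 12 partner genes (signalling partners of the receptors, cofactors and relatives of Bcl2), none passed and the median was 0.08. Gnai2, the G protein subunit used by Ccr7 and S1pr1, had 692 and 707 CPM in Nanocapsule and 790 and 598 CPM in Control T cells, and Il2rg, the shared chain that pairs with Il7r, had 472 and 613 CPM in Nanocapsule and 498 and 687 CPM in Control T cells. Jak1, the kinase bound to Il7r, had 396 and 451 CPM in Nanocapsule and 361 and 485 CPM in Control T cells.

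Outside the T cells, no member passed between treatments with all 4 libraries and no block. In B cells 10 of 2263 genes passed (0.442%, 0 in DESeq2) and 0 of the 6 members tested. In C1q macrophages 1 of 7566 genes passed (0.0132%) and 0 of the 4 members tested. In melanocytic tumour cells 0 of 16262 passed (0%, with 1254 at an unadjusted p under 0.05 and 106 in DESeq2). Tumour cells had Tcf7 at 6.90 and 9.54 CPM in Nanocapsule libraries, against 5.15 and 6.55 CPM in Control libraries, a log2 change of 0.50 ± 0.17 (unadjusted p = 0.030, adjusted p = 0.645). With the replicate number as a block this Tcf7 change was 0.48 with an adjusted p of 0.0332. Without Nanocapsule 2, Klf2 passed in tumour cells (-0.996, adjusted p = 0.00465) and Il7r in macrophages (0.93, adjusted p = 0.0195).

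NK cells, with 13 and 18 cells in Nanocapsule and 8 and 17 in Control libraries, were not fitted. They summed to 51393 and 106203 UMIs in Nanocapsule and 33108 and 85363 UMIs in Control libraries, so the lower values below rest on few UMIs. For 4 of 9 members each Nanocapsule library lay above each Control library. Of the 4 members that passed the low-count filter (Tcf7, Klf2, Satb1 and Bcl2), 3 did, where 19.8% of 1233 genes past the filter did. Tcf7 had 175 and 188 CPM in Nanocapsule NK cells, against 60.4 and 129 CPM in Control NK cells. Satb1 had 545 and 621 CPM in Nanocapsule NK cells, against 211 and 305 CPM in Control NK cells. Bcl2 had 409 and 650 CPM in Nanocapsule NK cells, against 181 and 164 CPM in Control NK cells. Lef1, which like Ccr7, Il7r, S1pr1 and Slamf6 did not pass the filter, had 117 and 113 CPM in Nanocapsule NK cells, against 60.4 and 35.1 CPM in Control NK cells. In Cd8-negative T cells the Nanocapsule values of Lef1, Satb1 and Bcl2 lay below the Control values, and the difference between the classes was not tested.

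The share of T cells with at least 1 UMI of a gene was compared after thinning each cell to 1000 UMIs, which every T cell reached. Tcf7 was then seen in 34.3% and 14.9% of Nanocapsule T cells, against 14.6% and 31.7% of Control T cells. The difference of 1.42 percentage points was within the spread (two-sided exact permutation test, p = 0.667), and with 2 libraries per group no p below 0.333 is possible. Without thinning, Tcf7 was seen in 68.6% and 43.2% of Nanocapsule and 25.0% and 69.8% of Control T cells. The exact 95% Clopper-Pearson intervals ran from 50.7% to 83.1% and from 27.1% to 60.5% in Nanocapsule, and from 7.27% to 52.4% and from 57.0% to 80.8% in Control T cells, and cover counting error only. In tumour cells, which are far deeper, it was seen in 29.8% and 45.8% of Nanocapsule and 17.4% and 35.0% of Control cells, at medians of 61114.5 and 89931.5 UMIs in Nanocapsule and 38519 and 81449 in Control cells. Slamf6 was seen in 6.09% and 5.72% of Nanocapsule T cells, against 9.69% and 10.8% of Control T cells, a difference of -4.34 points (exact permutation p = 0.333, the smallest possible). Without thinning it was seen in 20% and 24.3% of Nanocapsule and 18.8% and 38.1% of Control T cells, and in tumour cells in 0 of 1504 and 0 of 958 Nanocapsule and 2 of 3159 and 2 of 1013 Control cells. Il7r was seen after thinning in 22.2% and 18.4% of Nanocapsule T cells, against 27.2% and 31.9% of Control T cells, a difference of -9.25 points that also had the smallest possible exact permutation p of 0.333. The exact permutation p of the other members' thinned shares lay between 0.667 and 1.

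Single T cells differed widely in how many of the 9 genes they held. These counts were not thinned, at median depths of 4811 and 6267 UMIs in Nanocapsule and 2704 and 4288 in Control libraries. The part of depth in these counts was not tested. The median was 5 and 3 members per cell in Nanocapsule libraries, against 3 and 5 in Control libraries. At least 5 members were seen in 54.3% and 32.4% of Nanocapsule T cells, against 18.8% and 52.4% of Control T cells. No member was seen in 3 and 4 Nanocapsule T cells and in 2 and 1 Control T cells. The libraries with more members per cell were thus Nanocapsule 1 and Control 2, the same that had the higher levels.

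The members were then compared within libraries, between T cells with and without a Tcf7 UMI, all treatments together. There were 24, 16, 4 and 44 cells with Tcf7 in Nanocapsule 1, Nanocapsule 2, Control 1 and Control 2, and 11, 21, 12 and 19 without. Median depths were 4652, 5842.5, 2852.5 and 4450.5 UMIs with Tcf7 and 5128, 7341, 2600.5 and 4020 without. Cells with Tcf7 were thus shallower in both Nanocapsule libraries and deeper in both Control libraries. The part of depth in this split was not tested. Of the 6 members other than Tcf7 that were tested, 5 were higher in the cells with Tcf7, where 6.65% of 1550 genes were.

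Lef1 rose by 1.78 ± 0.33 on the log2 scale (adjusted p = 8.23e-05), Satb1 by 1.76 ± 0.30 (8.80e-06), Il7r by 1.73 ± 0.30 (1.05e-05), Bcl2 by 2.03 ± 0.38 (0.000655) and Klf2 by 1.48 ± 0.31 (0.00178). Il7r had 418, 342, 539 and 538 CPM in cells with Tcf7, against 73.0, 98.4, 127 and 272 CPM in cells without, in the same library order. Satb1 had 393, 254, 449 and 702 CPM in cells with Tcf7, against 146, 76.5, 170 and 177 CPM in cells without. Each library showed the difference for both genes, but in Control 1 it rests on 4 cells with Tcf7 that held 11129 UMIs in all. Ccr7 had 1.59 ± 0.67 (adjusted p = 0.194), and it passed without Nanocapsule 2 (3.18, adjusted p = 0.000214) and with no low-count filter (1.53, adjusted p = 0.0244). With the large barcodes kept, Bcl2 (2.50, adjusted p = 0.0622) and Klf2 (2.07, adjusted p = 0.147) did not pass, and Klf2 did not pass without Control 1 (adjusted p = 0.141).

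In the same split, 4 of 10 other naive and memory genes tested were higher in the cells with Tcf7 and none was lower. These were Klf3 (1.73), Foxp1 (1.71), Bach2 (1.59) and Foxo1 (1.33, all log2), transcription factors of quiescent lymphocytes. Of 9 effector and exhaustion genes tested, 5 were lower, where 5.29% of all genes tested were. These were the checkpoint receptors Pdcd1 (-4.26) and Ctla4 (-2.09), the granule genes Gzmk (-1.90) and Nkg7 (-1.49) and the transcriptional regulator Id2 (-0.83), while the early activation marker Cd69 was higher (1.66). These list genes are named because they passed, after their values were seen. The split pools CD8 and Cd8-negative T cells, and Nkg7 and Gzmk were higher in CD8 T cells, as given above. The part of this mix in the split was not tested.

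T cells above the median UMI count of their library were compared in the same way with those at or below it. Median depths of CD8 T cells were 4841, 7319, 3250 and 4893.5 UMIs in Nanocapsule 1, Nanocapsule 2, Control 1 and Control 2. Those of Cd8-negative T cells were lower in each library, at 4811, 6000, 2376 and 3970 UMIs. The part of this mix in the depth split was not tested. Control 1 had 8 cells on each side, and its smaller cells summed to 13834 UMIs. Of the 7 members tested, 3 were lower in the larger cells, where 0.559% of 1611 genes were lower. Klf2 had 358, 158, 67.6 and 465 CPM in the larger cells of Nanocapsule 1, Nanocapsule 2, Control 1 and Control 2, against 1826.2, 927, 1373.4 and 1205.8 CPM in the smaller cells. The change was -2.30 ± 0.29 on the log2 scale (adjusted p = 0.00145), and no library's larger cells reached the level of any library's smaller cells. Tcf7 had 201, 68.9, 158 and 287 CPM in the larger cells, against 871, 288, 217 and 575 CPM in the smaller cells (-1.57 ± 0.30, adjusted p = 0.0331). Lef1 had 158, 34.5, 158 and 265 CPM in the larger cells, against 620, 234, 434 and 408 CPM in the smaller cells (-1.56 ± 0.33, adjusted p = 0.0413). The Tcf7 and Lef1 calls were lost without Nanocapsule 1 (adjusted p = 0.284 and 0.346) and without Nanocapsule 2 (0.0766 and 0.122), and that of Lef1 also without Control 1 (0.0562). Il7r (-1.13, adjusted p = 0.0552), Ccr7 (-1.04, 0.175), Satb1 (-1.03, 0.109) and Bcl2 (-0.71, 0.381) did not pass. With the large barcodes kept, 6 of 7 passed as lower, where 40 of 1847 genes did. Among the 6 were Klf2 (-2.76), Il7r (-1.71), Ccr7 (-1.33) and Satb1 (-1.19).

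**Figure D3:**
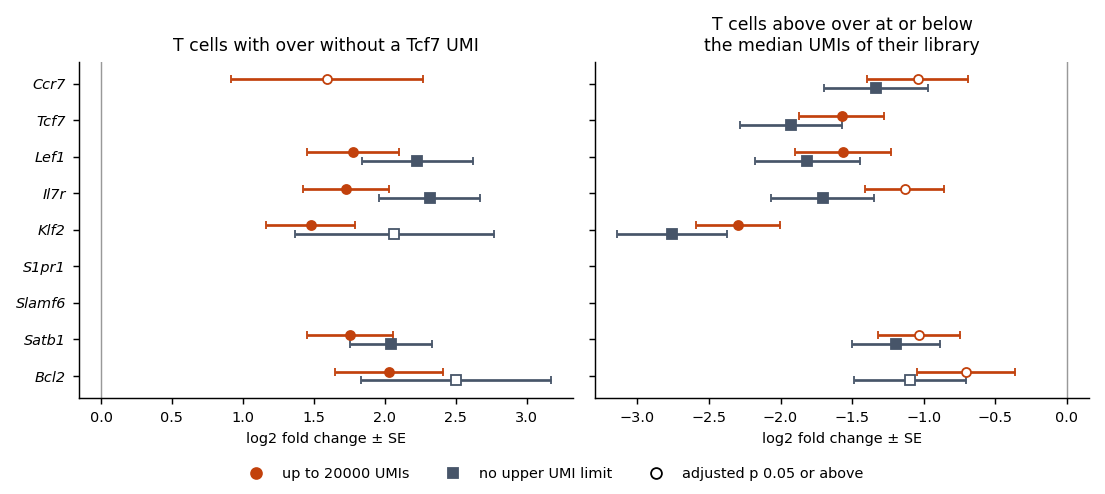
Log2 fold change of each gene tested between T cells with and without a Tcf7 UMI (left) and between T cells above and at or below their library's median UMIs (right), with bars of 1 SE, circles for cells up to 20000 UMIs, squares with no upper limit and open symbols for an adjusted p of 0.05 or above. All changes lie above 0 on the left and below 0 on the right, where Klf2 is lowest, and genes that did not enter a fit have no point.

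At the far end of this range were the 12 barcodes over 20000 UMIs, 3 from Nanocapsule 1 and 9 from Nanocapsule 2. They held 35 UMIs of the 9 members among 357160, or 98.0 CPM. The smaller T cells of the same libraries summed to 2624.2 and 1380.4 CPM over the members, and Control T cells to 1614.6 and 3243.0 CPM. The large barcodes of Nanocapsule 1 held 5 UMIs of Satb1, 2 of Slamf6 and none of the other members. Those of Nanocapsule 2 held 7 of Satb1, 7 of Bcl2, 5 of Slamf6, 4 of Lef1, 3 of Klf2, 1 each of Ccr7 and Il7r and none of Tcf7 or S1pr1. They held medians of 44 and 88 UMIs of the 4 gate genes, and 10 of 12 had a CD8 UMI. Per UMI the gate genes were mostly below those of the smaller T cells, with Cd3d at 636 and 684 CPM in the large barcodes against 953 and 1117.8 CPM in the smaller cells, and Cd3e at 664 and 877 against 723 and 1111.1 CPM, while Trac was at 353 and 290 against 266 and 364 CPM. Pigment genes stood at 14.1 and 17.5 CPM in them, below the 70.2 and 87.5 CPM of the smaller T cells in those libraries. The cytotoxic genes did not move together. Gzmb stood at 1793.7 and 1864.8 CPM in the large barcodes, against 868 and 842 CPM in the smaller T cells, Nkg7 at 1963.2 and 2489.9 against 1073.8 and 2643.0 CPM, Prf1 at 268 and 437 against 452 and 391 CPM and Ifng at 42.4 and 461 against 246 and 242 CPM. The cell cycle gene Top2a stood at 424 and 335 CPM in the large barcodes, against 85.3 and 77.4 CPM in the smaller T cells.

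**Figure D4:**
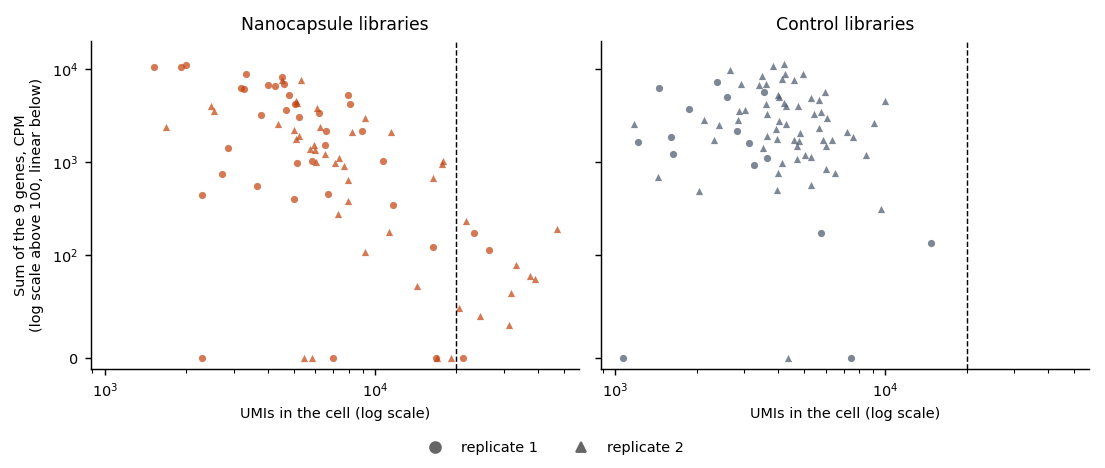
Summed level of the 9 genes in each T cell barcode, in CPM on a scale that is logarithmic above 100 and linear below, against the UMIs of the barcode on a log scale, for Nanocapsule (left) and Control libraries (right), with circles for replicate 1, triangles for replicate 2 and a dashed line at 20000 UMIs. The 12 barcodes right of the line are all in Nanocapsule libraries and sit low on the vertical axis.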

How the data were processed

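The authors deposited an unfiltered matrix of raw UMI counts per library from 10x single cell 3′ v2 libraries, aligned to mm10 per the labels. Cell Ranger is given as 2.1.1 in the submitters' processing notes and as version 4 in the file headers. The 9 genes, the gene lists and the cell classes were chosen with earlier results of these data known.

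T cells were gated as stated, with at most 20% mitochondrial UMIs, and other classes by marker genes, with no clustering and no doublet caller. Barcodes with a share of pigment gene UMIs of at least 1/4 of the median over barcodes of 10000 UMIs or more in their library, or passing another lineage's gate, were left out. The 20000 UMI limit, the split by Tcf7 and the split by depth were chosen after seeing the data. Counts were summed per library and class, since cells are not replicates, and a CPM is the summed count per 1000000 UMIs. The fits used edgeR 4.0.16 under R 4.3.3 (TMM, filterByExpr, robust quasi-likelihood test, Benjamini-Hochberg adjustment over all genes tested), with DESeq2 1.42.0 as an alternative. SEs are the absolute log2 change over the square root of F. Treatment fits had been planned for classes with at least 10 cells in every library. CD8 and Cd8-negative T cells fell below this in Control 1 (7 and 9 cells) and were fitted as an addition. Python 3.11.15, numpy 2.4.6, scipy 1.17.1 and pandas 2.3.3 did the rest. Limits of a count of 0 use 3 counts over the class and cover counting error only. Members and the 3 most alike genes are named, and of each list the most abundant or those that passed. Of 32285 genes, 32235 matched GENCODE M21 by ID. The fits were tested on simulated counts.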

Additional observations from a re-analysis of the deposited data

Results flagged for a closer look

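After barcodes with pigment or other lineage genes were left out, the 12 T cell barcodes over 20000 UMIs were all in Nanocapsule libraries. There were 3 in Nanocapsule 1 and 9 in Nanocapsule 2, while the Control libraries held 0. Control 2 had 32 CD8 T cells with 166046 UMIs, and 33 with 187546 UMIs among all 177 barcodes. It thus held a barcode over 20000 UMIs that had been left out at that step. The 12 are left out of every comparison above except those said to keep the large or all barcodes. They drew attention because, after that step, they were found under 1 treatment alone. Their 9 members summed to 98.9 CPM in Nanocapsule 1 and 97.8 CPM in Nanocapsule 2. No explanation for them was tested.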

How the results depend on the processing

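Numbers of genes past the threshold moved with the processing, and members passed between treatments only where named above. In T cells, 0 genes became 2 with at least 1500 UMIs, 1 in DESeq2, 22 with no low-count filter, 14 with the replicate block, 1 with all 177 barcodes and 0 to 115 with a library left out. In CD8 T cells, 0 became 2 in DESeq2, 12 with no filter, 9 with all barcodes and 5 to 56 with a library left out. In Cd8-negative T cells, 2 became 1 in DESeq2, 8 with no filter, 0 with the large barcodes kept, 15 with the replicate block and 5 to 15 with a library left out. For CD8 against Cd8-negative cells, 15 became 57 with no filter, 27 with the large barcodes and 3 with all barcodes. The interaction, at 0, became 2 with no filter, 2 with the large barcodes, 24 with all barcodes and 1 to 20 with a library left out. T cells against B cells had 891 calls, and 1503 with no filter. In B cells, 10 became 0 in DESeq2, 5 with the replicate block and 11 to 24 with a library left out. In macrophages, 1 became 6 in DESeq2, 59 with no filter, 3 with the replicate block and 0 to 262 with a library left out. In tumour cells, 0 became 106 in DESeq2, 12 with no filter, 456 with the replicate block and 11 to 78 with a library left out. The Tcf7 split, at 185, became 99 in DESeq2 and 112 to 163 with a library left out. The depth split, at 14, became 7 in DESeq2, 62 with no filter, 72 with the large barcodes and 1 to 21 with a library left out.

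Among the fitted changes printed above, signs turned (library left out aside) for S1pr1 in DESeq2 (0.01), for Klf2 with all barcodes (-0.42) and with the large barcodes (-0.52), and for Il7r against macrophages with all barcodes (-0.06). The Tcf7 share difference turned to -2.22 when thinned to 2000 UMIs, -0.0953 with at least 1500 UMIs and -2.67 with all barcodes. With a library left out, log2 changes in T cells ranged from -1.10 to 0.83 for Tcf7, -1.47 to 0.22 for Lef1, -0.73 to 0.24 for Ccr7, -0.49 to 0.87 for Klf2, -1.18 to 0.64 for S1pr1, -1.47 to 0.15 for Satb1, -0.94 to 0.37 for Il7r -1.19 to -0.25 for Slamf6 and -0.59 to 0.72 for Bcl2, and in Cd8-negative T cells from -1.18 to 0.18 for Tcf7. For each gene, the deviation of replicate 1 from its group mean was taken in each treatment. Over genes, these deviations correlated between the treatments at -0.0478 in T cells, 0.0537 in B cells, 0.109 in macrophages and 0.298 in tumour cells. With 2 libraries per group this is a single contrast, so the replicate numbers were not shown to pair the samples. The cause of these changes was not tested. The 16 T cells of Control 1 limit every T cell comparison.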
